A study of Rattus norvegicus with 12 samples.

Results

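The 9 genes described here are interferon-induced antiviral genes and their partners in antigen processing: Oas1a, Mx1, Mx2, Isg15, Ifit3, Irf7, Psmb8, Psmb9 and Tap1. They were taken by gene symbol from a table of 26949 genes, and each symbol matched a single row. The study sequenced hippocampal RNA of male rats kept for 4 weeks under chronic intermittent hypoxia (abbreviated CIH), in which low oxygen comes and goes as in sleep apnoea, or in normoxia (control). Each group had 3 RNA libraries, with 17170943 to 21941173 estimated read counts each. For strain, age and hypoxic regime, no entry is given in the sources used here. No group carries a genetic change or any other treatment according to the labels. Whether each library is a separate animal is not stated, so a p-value here reflects only how these libraries vary, which may be technical. All 8 marker genes of hippocampal neurons, among them the dentate granule cell gene Prox1 and the CA field gene Wfs1, were present in every library.

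Type I and type II interferons bind receptors on nearly every cell, and the receptors' JAK kinases activate STAT transcription factors. Type I signalling acts through the interferon-stimulated response element in the promoters of antiviral genes, and type II signalling through the gamma-activated site. In the brain, microglia and endothelial cells are known for strong responses. The immunoproteasome is the form of the proteasome whose interferon-inducible catalytic subunits PSMB8, PSMB9 and PSMB10 take the places of PSMB5, PSMB6 and PSMB7, and whose peptides are carried to class I molecules by the TAP1 and TAP2 transporter.

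RefSeq promoter sequences of the GRCr8 assembly, from 250 bases before to 50 bases after the gene start, were held for 7 of the 9: the table has no entry for Mx2 and Isg15. The core of the response element, searched as a pair of GAAA blocks with any 2 bases between them on either strand, stood in 5 of the 7 (Oas1a, Ifit3, Irf7, Psmb8 and Tap1), against 3.92% of all 33469 promoters of that length. The lines below are given because they show the element in its place in each of these 5 promoters, 5′ to 3′ on the gene's strand, with the matching letters in capitals and 15 bases on either side. A match on the other strand reads as TTTC blocks.
Oas1a, chr12:41330410-41330455, plus strand: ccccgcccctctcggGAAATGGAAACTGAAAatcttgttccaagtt
Ifit3, chr1:241527267-241527306, plus strand: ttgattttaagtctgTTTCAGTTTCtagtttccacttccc
Irf7, chr1:205800068-205800107, minus strand: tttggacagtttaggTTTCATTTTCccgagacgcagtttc
Psmb8, chr20:4657011-4657050, minus strand: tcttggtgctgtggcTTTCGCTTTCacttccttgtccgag
Tap1, chr20:4668640-4668679, minus strand: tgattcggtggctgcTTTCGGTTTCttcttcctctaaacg

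The Oas1a capitals hold 2 overlapping matches, from 41 to 26 bases before the start. The match lay 44 to 35 bases before the start in Ifit3, 69 to 60 in Irf7 and 121 to 112 in Tap1, and spanned the start itself in Psmb8. The gamma-activated site, searched as TTC and GAA with any 3 bases between them and equal on both strands, stood in 2 of the 7 promoters, Oas1a and Psmb8, against 8.87% of all promoters. A match is a description of letters and not of a bound site. Psmb9 and Mx1 had neither motif in this window. Psmb9 and Tap1 are transcribed away from each other from neighbouring starts, and their promoter windows share 44 bases. The response element match printed for Tap1 lies between these starts, upstream of Psmb9 but outside the Psmb9 window. The lack of a match for Psmb9 therefore holds for its window only, and that for Mx1 likewise holds for the Mx1 window only. The Psmb9 promoter is printed whole because Psmb9 is the only gene of the 9 whose CIH libraries all lay below the controls, and it holds no capitals because neither motif was found.
Psmb9, chr20:4668750-4669049, plus strand: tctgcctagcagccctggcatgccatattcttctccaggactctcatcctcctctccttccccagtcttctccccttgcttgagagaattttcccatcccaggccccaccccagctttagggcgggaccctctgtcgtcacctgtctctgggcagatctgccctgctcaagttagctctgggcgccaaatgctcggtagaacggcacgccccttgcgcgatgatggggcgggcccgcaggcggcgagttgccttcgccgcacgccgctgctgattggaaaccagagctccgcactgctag

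By RefSeq gene order, Tap2, Psmb8, Tap1, Psmb9 and RT1-DMb follow each other on chromosome 20. Mx1 and Mx2 lie on chromosome 11 with Fam3b between them, Oas1a lies on chromosome 12 among its Oas1 copies, and Ifit3 lies on chromosome 1 beside Ifit2. This order is that of GRCr8, while the read counts rest on Rnor_6.0.

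The 9 genes did not move in a common direction. Oas1a and Mx2 stood higher in every CIH library than in any control, Psmb9 stood lower in every CIH library, and the groups overlapped in the other 6. Isg15 had too few counts to enter the test, and of the 8 genes tested 4 had a higher and 4 a lower mean in CIH, with a median log2 fold change of 0.04. Over all 17935 genes tested, 50.6% were higher in CIH and the median was 0.00. Groups that did not overlap were found in 3.05% of genes tested with CIH higher and in 2.65% with CIH lower, against the 2 and 1 genes here. The 9 genes were chosen with earlier results of these data known. Their mixed direction and these counts therefore describe the genes and are no test. No gene of the 9 passed the threshold of 0.05 in edgeR's quasi-likelihood test with Benjamini-Hochberg adjustment (adjusted p = 1.00 for each of the 8 tested), and neither did any other gene (0% of those tested). At an unadjusted p under 0.05, edgeR counted 319 of all genes, 0.914% of those tested with CIH higher and 0.864% with CIH lower. Oas1a, Mx2 and Psmb9 were among them. DESeq2 called 9 genes and limma 1, none of them among the 9 described here. In bulk tissue, fewer cells of a type and less RNA per cell cannot be told apart.

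**Figure D1:**
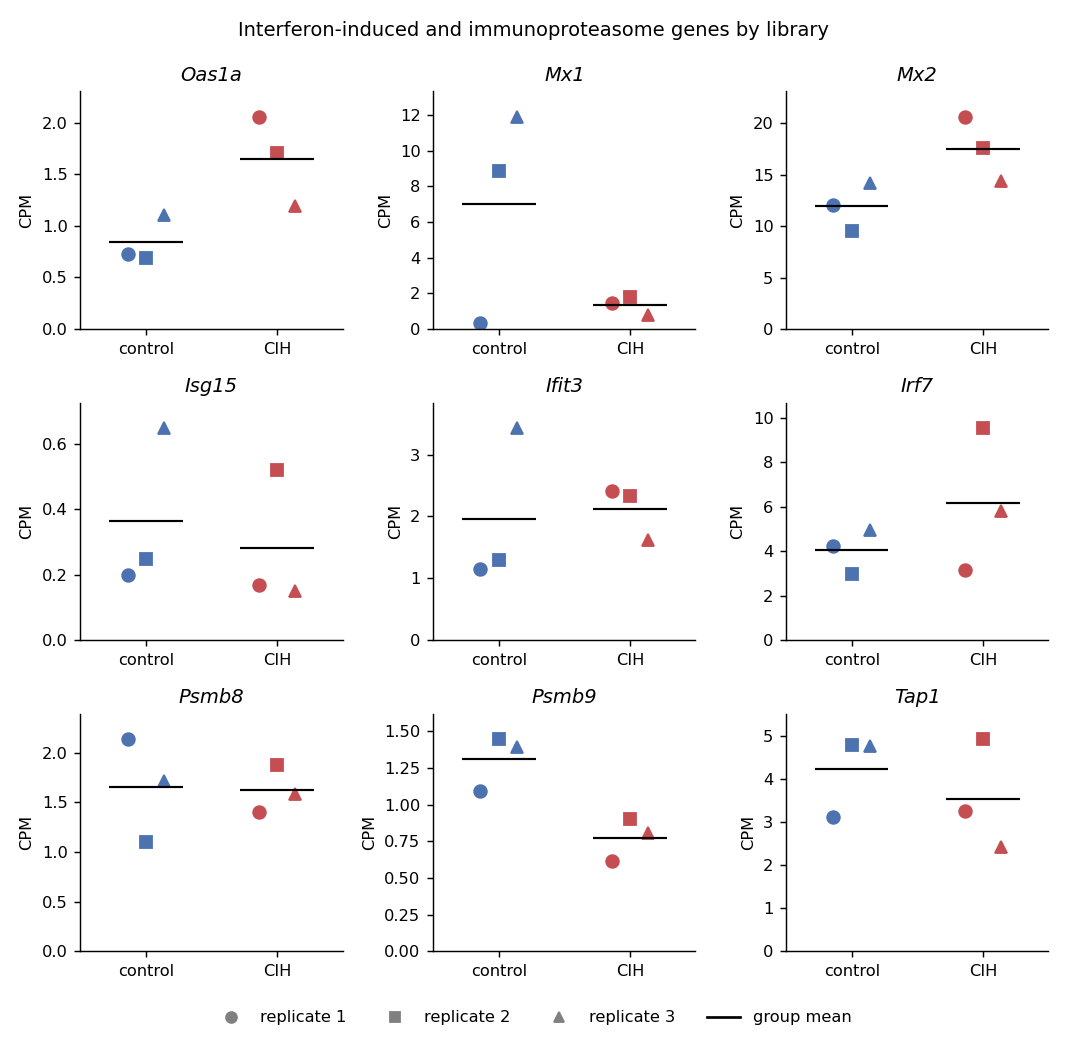
Each panel plots the normalised read count (CPM, counts scaled to library size) of 1 gene in the 3 control (blue) and 3 CIH (red) libraries, with the group mean as a line; the axes start at 0 and differ between panels. Oas1a and Mx2 are higher and Psmb9 is lower in every CIH library, while Mx1 spans 0.348 to 11.9 CPM within the controls.

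On the TPM scale, which is per transcript length, Mx2 was the most abundant of the 9, at 9.51 ± 2.83 TPM over the 6 libraries (SD, n = 6). Irf7 followed at 5.26 ± 2.40 TPM. Psmb8 stood at 3.55 ± 0.812, Tap1 at 2.93 ± 0.798, Psmb9 at 2.80 ± 0.885 and Mx1 at 2.71 ± 3.12 TPM. Ifit3 stood at 2.08 ± 0.891, Oas1a at 1.84 ± 0.798 and Isg15 at 1.35 ± 0.870 TPM. From Irf7 downwards, each neighbour in this order differed from the next by less than the larger of their SDs, so adjacent places in the order are not resolved. Genes farther apart can be: Irf7 (3.04 to 9.59 TPM) and Isg15 (0.64 to 2.73 TPM) did not overlap in any library. The range of Mx2 (5.53 to 13.6 TPM) overlapped that of Irf7. The Mx2 mean level exceeded that of 58.3% of all genes in the table and the Isg15 level that of 38.0%.

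The interferons themselves were at the edge of detection. Of 10 ligand genes sought, 5 were in the table and none passed the filter on low counts. Ifnb1, the interferon that most cells make first on viral sensing, had 1 read in each of CIH replicates 1 and 2 and 0 in the other 4 libraries. No other ligand had more than 6 counts in any library. Summed over the 5 genes, ligand levels were 0.0994 to 0.556 CPM in control and 0.152 to 0.841 CPM in CIH, and counts this low could not show a difference.

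The main receptor genes were well measured, and their group means lay close together. Ifnar1, a chain of the type I receptor, averaged 87.9 ± 3.84 CPM in the controls against 87.1 ± 2.10 CPM under CIH (SD, n = 3 per group), with a log2 fold change of -0.01 (SE 0.09). Its partner Ifnar2 had a log2 fold change of -0.01 (SE 0.11). For the type II receptor the values were 0.07 (SE 0.10) for Ifngr1 and -0.13 (SE 0.23) for Ifngr2, and Il10rb, shared by the type III and interleukin-10 receptors, had 0.15 (SE 0.22). Ifnlr1, the specific chain of the type III receptor, varied far more, from 0.497 to 6.58 CPM in control and from 0.607 to 5.61 CPM in CIH. Its log2 fold change was -0.49 (SE 0.98), and -1.59 without CIH replicate 1. Of 6 receptor genes 2 had a higher and 4 a lower mean in CIH (median -0.01), and none passed the test.

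Signal transducers gave 6 higher and 7 lower means among 13 genes (median -0.01), with none past the threshold. Stat2, a transcription factor of the type I pathway, gave a log2 fold change of -0.02 (SE 0.12). Irf9, its DNA-binding partner, gave 0.21 (SE 0.21). The receptor kinases Jak1 and Tyk2 had -0.06 (SE 0.15) and 0.14 (SE 0.11). Irf1, which drives the immunoproteasome genes, had -0.17 (SE 0.21), Irf3, which starts interferon transcription, 0.08 (SE 0.14), and the IRF kinase Ikbke -0.22 (SE 0.26).

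Irf7 (gene ID 293624) encodes the interferon-induced factor that amplifies type I interferon transcription. It had 85, 60 and 107 counts in control replicates 1 to 3 and 56, 201 and 115 in CIH replicates 1 to 3, or 4.22, 2.99 and 4.96 CPM against 3.14, 9.53 and 5.82 CPM. CIH replicate 2 was far above all others and CIH replicate 1 lay among the controls, so the groups overlapped. The means were 4.06 ± 0.994 CPM for control and 6.16 ± 3.21 CPM for CIH (SD, n = 3 per group). The log2 fold change was 0.60 (SE 0.41, unadjusted p = 0.185, adjusted p = 1.00 in edgeR). The log2 fold change was 0.14 without CIH replicate 2 and 0.91 without CIH replicate 1 (unadjusted p = 0.0237, adjusted p = 1.00 in edgeR), the ends of the range over libraries left out. Microglial markers were also highest in CIH replicate 2. Their summed level over 12 genes was 328 CPM there, 264 to 286 in the controls and 261 and 262 in the other CIH libraries. Of the 12 genes 8 peaked in it, against 14.8% of all genes tested. The summed level of 8 neuron markers was highest there too, at 12700 CPM against 8250 to 11700 CPM elsewhere, with 2 of the 8 peaking in it. The part of microglia or neurons in the Irf7 value was not tested.

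Oas1a (gene ID 192281) encodes an oligoadenylate synthetase, an enzyme that is switched on by viral RNA and activates the ribonuclease RNase L. Its estimated counts were 14.6, 13.9 and 23.9 in control and 36.7, 35.9 and 23.5 in CIH, or 0.725, 0.691 and 1.11 CPM against 2.06, 1.70 and 1.19 CPM. Every CIH library was above every control on the CPM scale, CIH replicate 3 only just so. The means were 0.842 ± 0.232 and 1.65 ± 0.437 CPM (SD, n = 3 per group), and the log2 fold change was 0.94 (SE 0.34). The unadjusted edgeR p was 0.0293 and the adjusted p was 1.00. Leaving out any 1 library gave 0.74 to 1.18.

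Rats carry a row of near-identical Oas1 copies, so reads of any copy may be assigned to another and each is uncertain singly. Oas1b had 38.7, 34.1 and 56.3 estimated counts in control and 66.4, 75.8 and 41.7 in CIH, with a log2 fold change of 0.59 (SE 0.31). Oas1i was listed at 0 in 3 libraries and reached 34.6 in CIH replicate 2. Oas1g was listed at 0 in the other 3 libraries and reached 21 in control replicate 3, so that no library had both. Summed over all 9 Oas1 rows, the level was 3.68, 3.34 and 5.24 CPM in control and 7.06, 7.30 and 4.65 CPM in CIH. CIH replicate 3 fell below control replicate 3, so the sums overlapped where Oas1a alone did not. The log2 fold change of the sum was 0.63 (SE 0.27), with an unadjusted edgeR p of 0.0492 and an adjusted p of 1.00, and it kept its sign with each library left out (0.50 to 0.85).

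Mx1 and Mx2 encode dynamin-like GTPases that block virus replication, Mx1 in the nucleus and Mx2 in the cytoplasm of rodent cells. Mx1 (gene ID 24575) had 7, 178 and 256 estimated counts in control and 26.1, 38.4 and 16.1 in CIH, or 0.348, 8.85 and 11.9 CPM against 1.46, 1.82 and 0.812 CPM. The highest and the lowest libraries were both controls, 34.2-fold apart, and the CIH libraries lay between them. The log2 fold change was -2.37 (SE 1.01, unadjusted p = 0.0522, adjusted p = 1.00 in edgeR), the largest in size of the 9. DESeq2 gave -2.38 (unadjusted p = 0.00761). In limma it was -1.09 on log2(TPM + 1) (unadjusted p = 0.167) and -1.25 on log2(TPM + 0.1) (unadjusted p = 0.335). Leaving out control replicate 1 gave -2.93 (unadjusted p = 0.000162, adjusted p = 0.297 in edgeR), and the range over all 6 libraries left out was -2.93 to -1.76.

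Mx2 (gene ID 286918) had 243, 192 and 306 estimated counts in control and 368, 371 and 284 in CIH, or 12.1, 9.55 and 14.2 CPM against 20.6, 17.6 and 14.4 CPM. All CIH libraries were above all controls, with the gap set by CIH replicate 3 over control replicate 3. The means were 11.9 ± 2.31 and 17.5 ± 3.13 CPM (SD, n = 3 per group), and the log2 fold change was 0.55 (SE 0.20). The unadjusted edgeR p was 0.0290 and the adjusted p was 1.00.

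The opposite signs of Mx1 and Mx2 were lost in their sum. Mx1 estimates were not whole numbers in 5 of 6 libraries, yet Mx1 and Mx2 together came to whole numbers, within 0.01, in all 6: 250, 369 and 562 in control and 394, 409 and 300 in CIH. Some reads were thus divided between these rows by the estimator, and their number is not known. Mx1 received 2.80%, 48.1% and 45.6% of the sum in control and 6.61%, 9.39% and 5.35% in CIH. The sum averaged 19.0 ± 6.83 CPM in the controls against 18.9 ± 3.48 CPM under CIH (SD, n = 3 per group), with a log2 fold change of -0.01 (SE 0.28, adjusted p = 1.00 in edgeR). Its sign turned to 0.29 without control replicate 3 and to 0.13 without CIH replicate 3. The values of Mx1 and of Mx2 are therefore uncertain singly, and whether the division reflects transcripts of each gene was not tested.

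**Figure D2:**
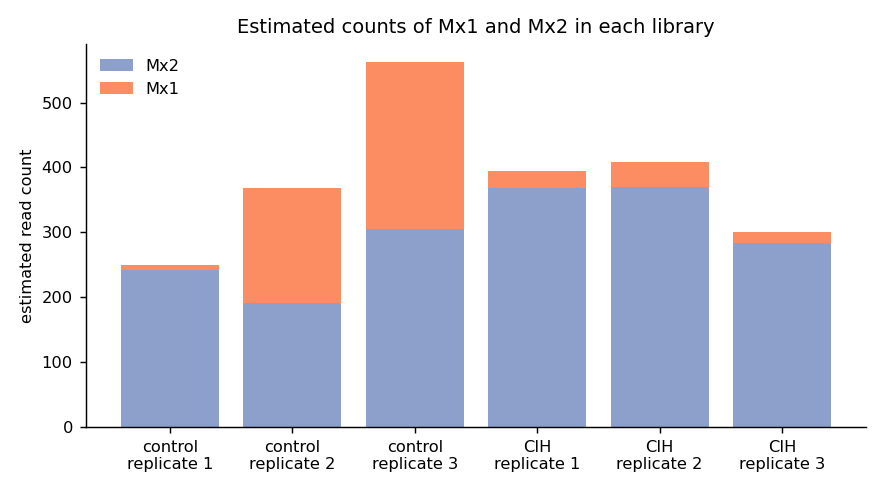
Bars stack the estimated read counts of Mx2 (lower, blue) and Mx1 (upper, orange) in each of the 6 libraries, with the axis starting at 0. Mx1 holds close to the same number of counts as Mx2 in control replicates 2 and 3 and a small part of the bar in the other 4 libraries, while total heights overlap between the groups.

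Ifit3 (gene ID 309526) encodes a member of the complex that binds viral RNA. It had 23, 26 and 74 counts in control and 43, 49 and 32 in CIH, or 1.14, 1.30 and 3.43 CPM against 2.41, 2.32 and 1.62 CPM. Control replicate 3 was the highest of all 6 and the other controls the lowest, so the CIH libraries lay inside the control range. The log2 fold change was 0.11 (SE 0.46, adjusted p = 1.00 in edgeR), and it ran from -0.16 without control replicate 1 and -0.12 without control replicate 2 to 0.79 without control replicate 3.

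Isg15 (gene ID 298693) encodes the ubiquitin-like protein that is joined to other proteins in the interferon response. It had 4, 5 and 14 counts in control and 3, 11 and 3 in CIH, or 0.199, 0.249 and 0.649 CPM against 0.168, 0.522 and 0.152 CPM. Both groups held 1 high library and 2 low ones. A fit without the filter gave a log2 fold change of -0.37 (SE 0.71, adjusted p = 0.998 in edgeR), too imprecise at this depth to show a difference.

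The enzymes that attach and remove Isg15 were better measured, apart from Ube2l6 with a log2 fold change of 0.02 (SE 0.59). All 5 of those tested had a higher mean in CIH (median log2 fold change 0.22), against 50.6% of all genes tested, and none passed the test. The ligase Herc6 had 0.50 (SE 0.24), the ligase Trim25 0.22 (SE 0.16) and the protease Usp18, which also silences the type I receptor, 0.45 (SE 0.31). The groups overlapped in each of these genes. Without CIH replicate 1, 4 of the 5 were higher, and Herc6 stood at 0.22, Trim25 at 0.11, Usp18 at 0.46 and Ube2l6 at -0.07.

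**Figure D3:**
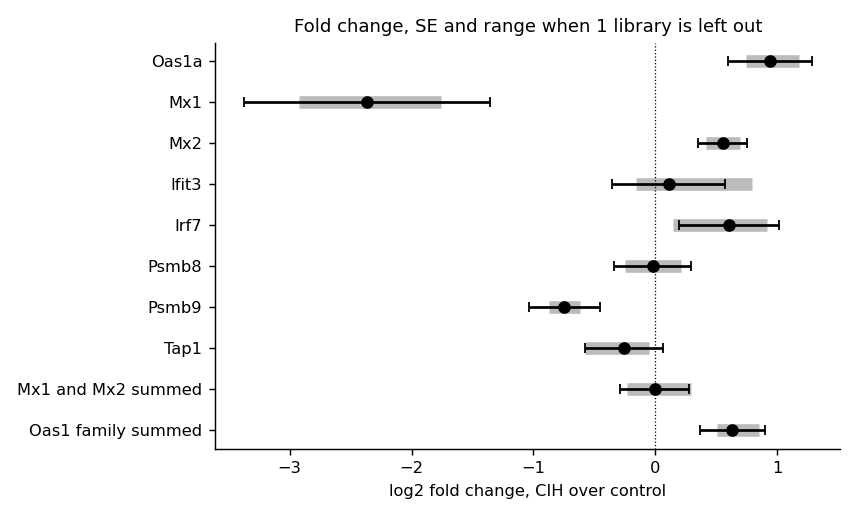
Points give the log2 fold change of CIH over control from edgeR for the 8 tested genes and for the sums of Mx1 with Mx2 and of the Oas1 rows; black bars are 1 SE and grey bars the range when each library is left out in turn. Grey bars cross 0 for Ifit3, Psmb8 and the Mx sum, and lie wholly on the higher side for Oas1a, Mx2, Irf7 and the Oas1 sum.

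Among the antigen-processing genes, Psmb9 (gene ID 24967) encodes the inducible caspase-like-site subunit of the immunoproteasome. It had 22, 29 and 30 counts in control and 11, 19 and 16 in CIH, or 1.09, 1.45 and 1.39 CPM against 0.617, 0.901 and 0.809 CPM. Every CIH library was below every control. The means were 1.31 ± 0.190 and 0.776 ± 0.145 CPM (SD, n = 3 per group), and the log2 fold change was -0.75 (SE 0.29), with an unadjusted edgeR p of 0.0386 and an adjusted p of 1.00. The unadjusted p varied with the method, at 0.106 in DESeq2, 0.0566 in edgeR without the low-count filter and 0.0155 in limma on log2(TPM + 1). With 1 library left out the log2 fold change ran from -0.87 to -0.62.

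Psmb8 (gene ID 24968), the inducible chymotrypsin-like subunit, did not share that pattern. It had 43, 22 and 37 counts in control and 25, 39.6 and 31.4 in CIH, or 2.14, 1.10 and 1.72 CPM against 1.40, 1.88 and 1.59 CPM. Control replicates 1 and 2 were the extremes and the CIH libraries lay between them. The log2 fold change was -0.02 (SE 0.32, adjusted p = 1.00 in edgeR) and ran from -0.25 to 0.21 with 1 library left out.

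Tap1 (gene ID 24811), a subunit of the peptide transporter that shares its promoter region with Psmb9, had 63, 96 and 103 counts in control and 58, 104 and 48 in CIH. On the CPM scale these were 3.13, 4.79 and 4.77 against 3.25, 4.93 and 2.43. CIH replicate 2 was the highest and CIH replicate 3 the lowest library, so the groups overlapped. The log2 fold change was -0.26 (SE 0.32, adjusted p = 1.00 in edgeR) and stayed below 0 with each library left out (-0.58 to -0.05). Its partner Tap2 had -0.33 (SE 0.19).

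The level of each inducible subunit was set against the constitutive subunit it replaces, per length, within each library. Psmb9 came to 2.89%, 3.21% and 3.07% of Psmb6 on the TPM scale in control and to 1.78%, 2.11% and 2.09% in CIH. All 3 CIH libraries were below all controls, and the means were 3.06 ± 0.158% and 1.99 ± 0.189% (SD, n = 3 each). The difference in the log2 ratio was -0.62 with p = 0.1 in a two-sided exact permutation test, the smallest p that 3 against 3 libraries allow, so the design cannot reach 0.05. This ratio rests on the same Psmb9 reads as the fold change and is no separate evidence. Psmb8 came to 3.75%, 1.68% and 2.25% of Psmb5 in control and 2.85%, 2.74% and 2.68% under CIH, for a log2 difference of 0.19 (p = 0.7, two-sided exact permutation test). Psmb10 came to 11.2%, 11.1% and 9.15% of Psmb7 in control and 12.2%, 14.3% and 8.29% under CIH, for a log2 difference of 0.11 (p = 0.8, two-sided exact permutation test). In both of these the control libraries overlapped the CIH libraries, and the sign turned without control replicate 2 (-0.08) for Psmb8 and without CIH replicate 2 (-0.06) for Psmb10. With Benjamini-Hochberg adjustment over the 3 ratios the exact permutation p became 0.3 for Psmb9 and 0.8 for Psmb8 and Psmb10.

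**Figure D4:**
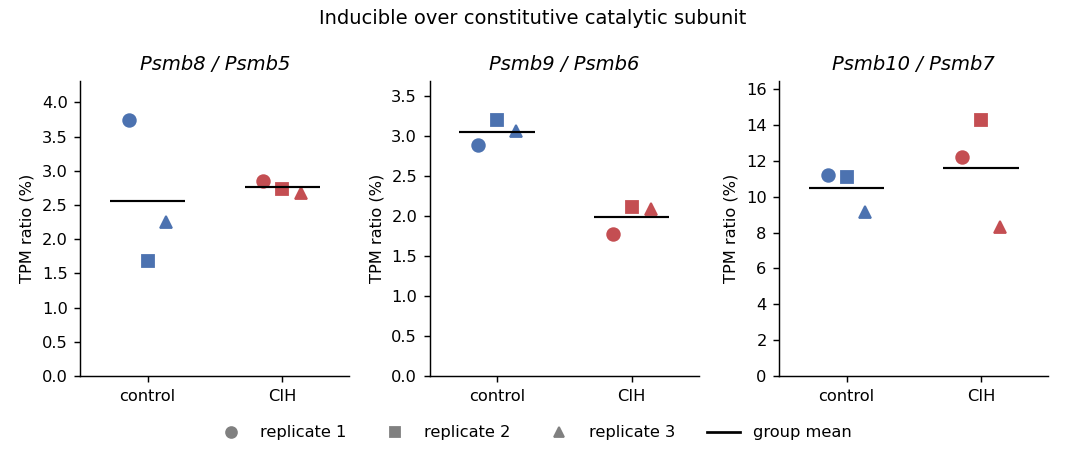
Each panel plots the TPM of an inducible catalytic subunit as a percentage of the constitutive subunit it replaces, by library, with the group mean as a line and the axis starting at 0. The Psmb9 ratio lies at 2.89 to 3.21% in control and 1.78 to 2.11% in CIH, while the groups overlap for Psmb8 and Psmb10.

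The constitutive subunits themselves had lower means in CIH in all 3 genes, each with overlapping groups and none past the threshold. Psmb5 had a log2 fold change of -0.19 (SE 0.17), Psmb6 -0.13 (SE 0.13) and Psmb7 -0.16 (SE 0.14). Among the 21 other class I genes tested, 7 were higher and 14 lower in CIH (median -0.07), and 12 were higher without CIH replicate 1 (median 0.01). The largest log2 fold change of the 21 was that of Pomp, 1.31 (SE 0.94), with overlapping groups. Pomp had 180, 46.3 and 4.22 estimated counts in control and 185, 183 and 181 in CIH. B2m, the class I light chain, averaged 75.9 ± 2.47 CPM in the controls against 88.8 ± 13.6 CPM under CIH (SD, n = 3 per group), with a log2 fold change of 0.23 (SE 0.13) without overlap. Nlrc5, the class I transactivator, had 0.22 (SE 0.21), also without overlap. These 2 of 21 compare with 3.05% of all genes tested. B2m was highest in CIH replicate 1 (104 CPM, against 82.0 and 79.8 in the other CIH libraries), and without it the log2 fold change of B2m was 0.09. Psmb10 had -0.01 (SE 0.22), the peptide-loading factor Tapbp -0.03 (SE 0.17), and the proteasome activator genes Psme1 and Psme2 had -0.20 (SE 0.20) and -0.26 (SE 0.17).

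Class II genes, which are not part of the immunoproteasome route, gave 1 higher and 4 lower means among 5 tested. RT1-DMb, the neighbour of Psmb9, had a log2 fold change of 0.41 (SE 0.34), RT1-Db1 -0.89 (SE 0.56) and the invariant chain gene Cd74 -0.40 (SE 0.37). None passed the test. The list median was -0.20, and -0.41 without CIH replicate 1.

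Of 50 other interferon-induced genes, 38 were tested, of which 26 had a higher and 12 a lower mean in CIH (median log2 fold change 0.21), against 50.6% higher among all genes. None passed the edgeR threshold. The groups did not overlap in 2 of them, with CIH higher, namely the galectin gene Lgals9 at 0.42 (SE 0.17) and the nuclear body gene Sp100 at 0.44 (SE 0.23). These 2 of 38 compare with 3.05% of genes tested. Without CIH replicate 1, Lgals9 stood at 0.27 and Sp100 at 0.29. The highest library was CIH replicate 1 for 12 of the 38, CIH replicate 2 for 13 and control replicate 3 for 7. Over all genes tested these libraries were the highest for 25.7%, 14.8% and 15.9%, in the same order. Without CIH replicate 1, 25 of the 38 were higher (median 0.13). The response element core stood in 30 of the 40 promoters held for this list, in 7 of 18 for the class I list and in none of the 3 constitutive subunits.

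Sensors and brakes of the response gave no shift in 1 direction. Of 12 nucleic acid sensor genes 7 were higher and 5 lower (median 0.06), with the RNA sensor Ddx58 at 0.11 (SE 0.17) and the adaptor Myd88 at -0.21 (SE 0.18). Of 8 negative regulators 4 were higher and 4 lower (median 0.00), with Socs3 at -0.33 (SE 0.28) and the phosphatase gene Ptpn2 at 0.15 (SE 0.12). None of these passed the test.

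**Figure D5:**
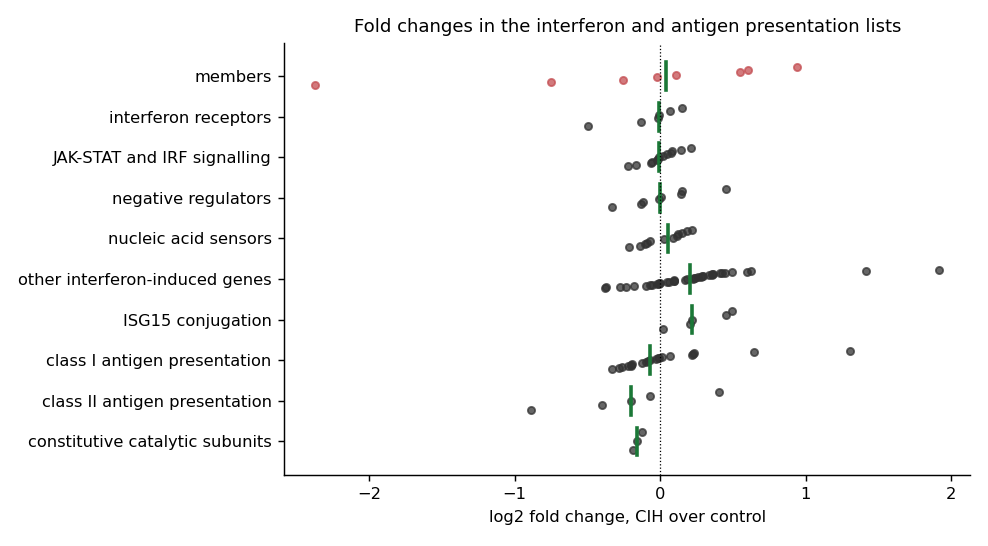
Each point is the log2 fold change of CIH over control for 1 tested gene, by list; the top row (red) holds the 8 tested genes described here, and green ticks are list medians. Receptors other than Ifnlr1 (-0.49) and signal transducers lie near 0, while the 8 genes spread from -2.37 to 0.94 around a median of 0.04.

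The libraries differed in the levels of several cell type lists. CIH replicate 1 was the highest library for 25.7% of all genes tested, against 13.4% to 16.2% for each of the others, and it was the highest for Oas1a and Mx2. Its summed endothelial marker level over 10 genes was 324 CPM, against 219 to 227 in the controls and 252 and 241 in the other CIH libraries, and all 10 markers peaked in it. The pericyte and smooth muscle sum over 8 genes was 341 CPM there, 215 to 238 in the controls and 228 and 198 in the other CIH libraries. Without CIH replicate 1 the log2 fold change was 0.74 (SE 0.38) for Oas1a and 0.41 (SE 0.21) for Mx2. Leaving out the highest CIH library lowers the CIH mean by construction, so these drops tell nothing about vessel cells. Mx2 also stood at 0.41 without control replicate 2. The part of vessel cells in these values was not tested.

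Most lymphocyte-defining genes were near the limit of detection. Of 12 lymphocyte markers 9 were in the table and 2 (Ptprc and Cd4, which microglia also express) were tested. The 9 genes in the table summed to 6.09 to 25.0 CPM in control and 9.20 to 21.7 CPM in CIH. The T, NK and B cell genes Cd3g, Cd8a, Nkg7, Cd79a and Cd79b had at most 3 counts in any library. Cd3e was listed at 279 in control replicate 1, at 263 in CIH replicate 3 and at no more than 2 elsewhere, and it made up 13.9 and 13.3 CPM of the sums in those 2 libraries. Erythroid genes, by contrast, were measured: 6 of 8 were tested, and the list summed to 63.6 to 98.9 CPM in control and 55.1 to 124 CPM in CIH. All 6 had a higher mean in CIH and peaked in CIH replicate 1, and none passed the test. The hippocampal field markers summed to 1930, 901 and 879 CPM in control replicates 1 to 3 and 785, 1200 and 1680 CPM in CIH replicates 1 to 3. Prox1 had 515 counts in CIH replicate 1 against 2169 to 8448 in the others. Oligodendrocyte markers summed to 7470, 3110 and 3080 CPM in control and 4900, 5360 and 7550 CPM in CIH. For meninges and fibroblasts the sums were 648, 469 and 391 CPM against 703, 132 and 366 CPM. For choroid plexus and ependyma they were 26.4, 12.9 and 14.2 CPM against 3.55, 10.8 and 23.4 CPM. Control replicate 1 and CIH replicate 3 thus held the highest 2 values of Cd3e. The same held for the hippocampal field, oligodendrocyte, and choroid plexus and ependyma sums, and not for the meninges and fibroblast or erythroid sums. The part of these lists in the values above was not tested.

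The genes whose levels most resembled each of the 9 across the 6 libraries were sought among 16349 genes by the Pearson correlation of log2 CPM, given here as a description of 6 points that share depth and composition. Oas1a was most like Hspa1b (0.993), an inducible heat shock gene, followed by Ncapg2 (0.985) and LOC100360470 (0.982). Mx2 was most like Cwc25 (0.995), followed by LOC103690142 and Oas1a (0.972 each). Mx1 resembled Klhdc2 (0.996), Coa6 (0.992) and Igfbp3 (0.991). Ifit3 resembled BGIG10116_39788 (0.984), Rbm43 (0.983) and BGIG10116_40444 (0.972), and Irf7 resembled Slc36a1 (0.994), LOC100909675 (0.993) and Fis1 (0.984). Of the antigen-processing genes, Psmb8 was most like Zfp263 (0.985), Rida (0.982) and LOC100910540 (0.976). Psmb9 was most like Get4 and Elfn1 (0.991 each) and Ndufb10 (0.989), and Tap1 was most like Slc12a3 (0.999), Saxo2 (0.998) and LOC100911402 (0.995). Oas1a, named for Mx2, was the only gene of the 9 found among the 3 nearest of another. With 6 points and 16349 candidates, values this close to 1 were found for each of the 8 genes compared.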

How the data were processed

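RNA of 6 hippocampal libraries was analysed, and 6 small RNA libraries were not used here. Per the file headers, the RNA table lists 26949 genes with the authors' estimated counts and their TPM and FPKM. Named without roles in the submitters' processing notes are RSEM 1.2.12, Bowtie2 2.2.5, HISAT2 2.2.0 and the genome Rnor_6.0. Annotation and strand use were not given in the sources used here. Deposited estimated counts, not whole in 16.0% of values, were rounded. Groups were taken from sample titles. All genes were fitted in edgeR 4.0.16 (TMM factors, filterByExpr, quasi-likelihood F test, Benjamini-Hochberg adjustment over the 17935 genes kept, threshold 0.05) in R 4.3.3. The standard error (SE) of a fold change was derived from the F statistic, and CPM uses the TMM-adjusted totals. Reads that fit several copies are divided by an estimator such as RSEM, so single copies of a family can trade reads. The deposited TPM served for levels and ratios and, as log2(TPM + 1) or log2(TPM + 0.1), for limma 3.58.1, with DESeq2 1.42.0 as another alternative. The authors' FPKM values served as an alternative for the ratios. The code was checked on simulated counts with known fold changes.

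Members and gene lists were chosen with earlier results of these data known. Named were all 9 members, a set of receptor, signalling and antigen-processing genes, the 3 genes of smallest p in each list, and the 3 genes most like each member with a mean of at least 1 CPM. A gene that this rule named is not reported here. Cd3e, Prox1 and the other marker and Oas1 genes named singly were named after their values were seen, as were Pomp and Ube2l6. The count of genes without CIH replicate 1 was added after seeing the data. Same-numbered replicates did not deviate together (correlations -0.222, -0.0457 and -0.176), so numbers were not used as pairs. Other pairings across the groups were not tested. No pair of libraries of a group agreed within sampling noise (chi-square per degree of freedom at least 13.1). RefSeq tables of GRCr8 served for gene order and promoters only, and all 9 symbols were matched in the gene table. Plots used matplotlib 3.10.9 (Python 3.11.15).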

Additional observations from a re-analysis of the deposited data

How the results depend on the processing

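All alternatives left the 8 tested genes outside the threshold. Over all genes, edgeR called 0, DESeq2 9 and limma 1 with either pseudocount; leaving out 1 library gave 0 to 1. The direction of Oas1a, Mx1, Mx2, Irf7, Psmb9, Tap1 and the Oas1 sum held under every alternative run. With 1 library left out, Irf7 ran from 0.14 to 0.91, Ifit3 from -0.16 to 0.79, Psmb8 from -0.25 to 0.21, the Mx1 and Mx2 sum from -0.235 to 0.29, the Psmb8 to Psmb5 ratio from -0.0776 to 0.50 and the Psmb10 to Psmb7 ratio from -0.0572 to 0.34. The replicate numbers share only a number; with them as a block edgeR called 0 genes, Psmb8 turned to 0.0105 and the Mx sum to 0.0400. The class II median was -0.41 without CIH replicate 1. The causes of these turns were not tested. Isg15 passed the filter only with some libraries left out (-0.65 to -0.07), and alternatives that keep the filter gave it no value. Counts of 3 to 43 reads limit Isg15, Psmb8, Psmb9 and Oas1a. For Mx1 and Mx2, how many reads were divided between the rows is not known.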
